A study of Homo sapiens with 4 samples.

Results

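The globin genes encode the protein chains of hemoglobin, and the 10 of them were read from the deposited table by symbol: HBZ, HBM, HBA2, HBA1 and HBQ1 of the alpha-like cluster, and HBE1, HBG2, HBG1, HBD and HBB of the beta-like cluster. Each symbol had 1 row, so the family made up 10 of the 58365 rows, and all 10 passed the filter on low values. The RNA was from H1, a line of human embryonic stem cells (hESCs) in wide use, which had been differentiated toward blood in steps and was harvested at day 8. Both groups received activin A and BMP4 for 2 days and VEGF with bFGF for the following 3 days. In the last 3 days VEGF and bFGF were given either with SB431542, a small molecule that blocks the TGFβ type I receptors (SB, 2 libraries), or without it (libraries titled DMSO, the usual solvent of such inhibitors, 2 libraries). The study describes collecting CD31-positive cells, that is endothelium and the blood cells that emerge from it, a step that the sample labels do not mention. All libraries came from this single line. The study speaks of independent experiments in general, but neither it nor the labels says that these libraries came from separate cultures, so p-values measure the spread between these samples, which may be technical.

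Hemoglobin is built from 2 alpha-like and 2 beta-like chains, and each cluster lists its genes in the order in which development uses them. The embryo begins with ζ-globin (HBZ) and ε-globin (HBE1) in the primitive red cells of the yolk sac, the fetus makes α-globin (HBA1, HBA2) and γ-globin (HBG1, HBG2), and after birth β-globin (HBB) with a little δ-globin (HBD) replaces the γ chains. HBM and HBQ1 are minor alpha-like genes whose products are not known in any common hemoglobin. Upstream control regions, bound by factors such as GATA1, TAL1, KLF1 and NFE2, switch the genes of each cluster on in turn.

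The alpha-like genes lie on chromosome 16 of GRCh38 and the beta-like genes on chromosome 11, with coordinates counted from 1. In the deposited table HBZ (ENSG00000130656.4) spans 152687 to 154503 and HBA2 (ENSG00000188536.12) spans 172847 to 173710. HBA1 (ENSG00000206172.8) lies at 176680 to 177522 and HBQ1 (ENSG00000086506.2) at 180453 to 181181. The row of HBM (ENSG00000206177.6) runs from 153892 to 166768, so it starts inside HBZ. On chromosome 11, HBB (ENSG00000244734.3) lies at 5225464 to 5229395, HBD (ENSG00000223609.7) at 5232678 to 5235370 and HBG1 (ENSG00000213934.6) at 5248083 to 5249892. The rows of HBG2 (ENSG00000196565.13, 5253190 to 5645789) and HBE1 (ENSG00000213931.5, 5268345 to 5505617) overlap, because their annotation holds long upstream transcripts.

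Near-identical copies set how far single rows can be read. Of the 50-base words in the HBA1 transcripts of GENCODE 29, 80.7% also occurred in HBA2, and 81.4% of those of HBA2 occurred in HBA1. HBG1 shared 24.1% of its words with HBG2, which shared 47.6% of its words with HBG1. HBM shared 23.6% with HBZ. HBD and HBB shared only 1.6% and 1.5% of their words with each other, and HBE1 shared 0.1% with the γ genes. How fragments were divided between HBA1 and HBA2, between HBG1 and HBG2, and between HBM and HBZ is therefore uncertain. HBD, HBB, HBE1 and HBQ1 shared almost no exact words of this length with other members. Sequence that is alike but for scattered differences was not counted, so these words do not settle how fragments were divided between HBD and HBB.

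Promoter sequences were taken from RefSeq (GRCh38.p14) for HBD and HBM, 2 of the 10 genes. These are the members for which the table of promoters used here held an entry, and the 250 bases before each start are shown. Capitals mark the motifs found on either strand, which were searched for by letters. The motifs were the CCAAT box (letters CCAAT), the CACCC box (letters CACCC), the TATA box (letters TATAAA) and the GATA site, for which AGATAA and AGATAG were searched, as well as the same letters with T in place of the first A. No match overlapped another in these windows. HBD lies on the minus strand (chr11:5234484-5234733) and HBM on the plus strand (chr16:165728-165977).
HBD: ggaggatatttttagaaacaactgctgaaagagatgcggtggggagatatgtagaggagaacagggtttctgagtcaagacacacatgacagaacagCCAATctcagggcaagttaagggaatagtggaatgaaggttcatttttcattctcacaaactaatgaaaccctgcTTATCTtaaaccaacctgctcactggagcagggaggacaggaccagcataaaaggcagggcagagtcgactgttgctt
HBM: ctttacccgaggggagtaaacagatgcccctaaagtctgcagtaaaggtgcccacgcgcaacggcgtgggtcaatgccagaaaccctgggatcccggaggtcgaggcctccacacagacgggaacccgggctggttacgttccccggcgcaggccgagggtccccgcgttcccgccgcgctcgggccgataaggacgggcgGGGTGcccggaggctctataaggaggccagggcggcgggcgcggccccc
The HBD window held a CCAAT box 153 to 149 bases before the start and a GATA site, AGATAA on the other strand, 78 to 73 bases before it. The HBM window held a CACCC box on the other strand, 49 to 45 bases before the start. Of 35116 RefSeq promoter windows of this length, 32.0% held the CCAAT box, 22.3% a GATA site, 54.7% the CACCC box and 10.7% the TATA box, so each motif is common. A match of letters is a description of the window and not a bound site.

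All values are FPKM (fragments divided by transcript length and by the mapped fragments of the library), which can be compared between genes. The total number of fragments is not given. The value of 1 fragment was estimated from other genes with 1 transcript of like length, and stood at 0.0835 to 0.110 FPKM for the length of HBZ and at 0.151 to 0.205 FPKM for that of HBQ1. HBZ thus rested on about 1698 and 1172 fragments with DMSO and on about 302 and 289 with SB, and HBQ1 on about 70 to 124. HBM rested on about 5 to 11 fragments, and HBB on about 19 and 13 fragments in the libraries of replicate 1 and on 96 and 119 in those of replicate 2. These are estimates for 1 transcript per gene and cover counting error only. Replicate numbers also set the libraries apart, with mitochondrial rows at 5.88% to 6.64% of the FPKM sum in replicate 1 and 9.92% to 10.2% in replicate 2. The endothelial marker list summed to 2418 to 2787 FPKM with DMSO and 2290 to 2640 FPKM with SB, and PECAM1, which encodes CD31, stood at 153 to 197 FPKM in the 4 libraries.

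Globin transcripts were abundant and mostly beta-like. The 10 genes together took 0.274% and 0.352% of the FPKM sum in the DMSO libraries and 0.247% and 0.313% in the SB libraries. Their sum was 1822 ± 269 FPKM with DMSO and 1683 ± 244 FPKM with SB (SD, n = 2 each), and the groups overlapped. HBG2 and HBE1 led the family in every library, followed by HBD, HBZ and HBA2. Among these HBZ was above HBA2 in both DMSO libraries and below it in both SB libraries, and the ranges of HBD and HBZ overlapped with DMSO. HBA1 and HBQ1 came below them with ranges that overlapped in the SB libraries. HBM was lowest in each library. The range of HBB overlapped those of HBG1 and HBQ1 in both groups, so the place of HBB in the order cannot be told.

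**Figure D1:**
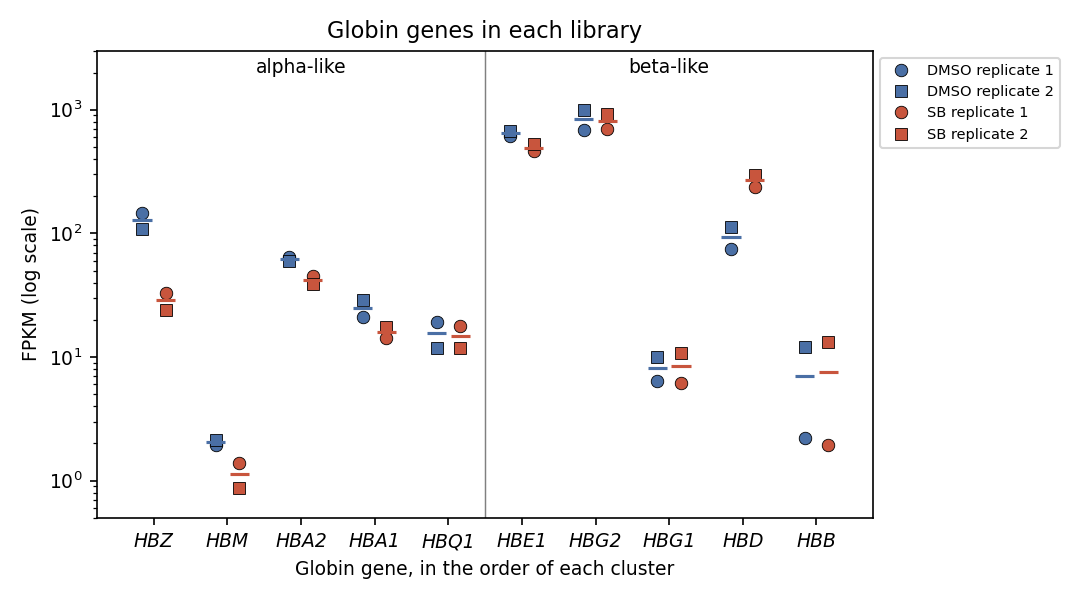
FPKM of the 10 globin genes on a log axis, with circles for replicate 1, squares for replicate 2, blue for DMSO, red for SB and a line at each group mean (n = 2 each). HBZ lies lower and HBD higher in both SB libraries, while HBB separates by replicate number and not by group.

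The comparison asked how the globin genes stood after 3 days of TGFβ inhibition. No globin gene passed the test over all genes: 0 of 10 had an adjusted p under 0.05 (limma, Benjamini-Hochberg over 14909 rows), where 0.134% of all tested rows did, 0.0268% higher and 0.107% lower. At an unadjusted p under 0.05 there were 4 of the 10, HBZ, HBA2 and HBA1 lower and HBD higher with SB, where 9.96% of all tested rows passed. The SB libraries lay outside the range of the DMSO libraries in 6 of 10 genes, 5 lower and 1 higher. Over all tested rows the groups did not overlap in 37.5%, with 16% lower and 21.5% higher. A log2 fold change of at least 1 in size was reached by HBZ and HBD, 2 of the 10, and by 3.72% of all tested rows. In a bulk sample, fewer cells that express a gene and less RNA per cell cannot be told apart.

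HBZ, the embryonic alpha-like chain, showed the largest difference of the family. Its level was 146 and 109 FPKM with DMSO against 33.2 and 24.1 FPKM with SB, so each SB library was far below both DMSO libraries. The mean was 128 ± 25.6 FPKM with DMSO and 28.7 ± 6.45 FPKM with SB (SD, n = 2 each), 4.45-fold lower. The log2 fold change of FPKM + 1 was -2.12 (SE 0.25, 95% confidence interval -2.76 to -1.48), with -2.10 in replicate 1 and -2.14 in replicate 2. The limma adjusted p was 0.0910 and did not pass, with an unadjusted p of 0.000421.

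The α genes, which serve fetal and adult hemoglobin, differed less. HBA2 stood at 64.1 and 59.2 FPKM with DMSO and at 45.0 and 39.1 FPKM with SB, without overlap. HBA1 stood at 21.0 and 28.9 FPKM with DMSO and at 14.2 and 17.5 FPKM with SB, again without overlap. The means were 1.47-fold and 1.57-fold lower with SB. On the log2 scale this was -0.54 ± 0.17 (SE) for HBA2 and -0.61 ± 0.23 (SE) for HBA1, with limma adjusted p of 0.395 and 0.488. Taken as 1 row because of their shared sequence, both copies had a log2 fold change of -0.57 (limma adjusted p 0.322). Without DMSO replicate 2, the log2 fold change of HBA1 was -0.39.

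Of the minor alpha-like genes, HBM lay apart in the groups and HBQ1 did not. HBM stood at 1.94 and 2.14 FPKM with DMSO and at 1.38 and 0.867 FPKM with SB, which is -0.53 ± 0.23 (SE) on the log2 scale (limma adjusted p 0.571) and rests on the few fragments given above. HBQ1 stood at 19.2 and 11.8 FPKM with DMSO and at 17.9 and 11.8 FPKM with SB, so its libraries differed by replicate number and the groups overlapped. Its log2 fold change was -0.05 with a 95% confidence interval of -0.88 to 0.78, so that differences within that interval could not be detected here. Within the replicate numbers it was -0.10 and -0.005.

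Of the beta-like genes, HBE1 encodes the embryonic chain. It stood at 614 and 676 FPKM with DMSO and at 459.7 and 524 FPKM with SB. Both SB libraries lay below both DMSO libraries, although by less than for HBZ, 1.31-fold on the means (645 ± 43.5 against 492 ± 45.2 FPKM; SD, n = 2 each). The log2 fold change was -0.39 (SE 0.16, 95% confidence interval -0.81 to 0.03, limma adjusted p 0.543), with -0.42 and -0.37 within the replicate numbers. Together, HBZ and HBE1 summed to 760 and 785 FPKM with DMSO and to 493 and 548 FPKM with SB.

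The fetal γ genes did not separate the groups. HBG2, the most abundant globin, stood at 682 and 990.5 FPKM with DMSO and at 694 and 916 FPKM with SB, which is a difference between replicate numbers in both groups. HBG1 stood at 6.39 and 9.97 FPKM with DMSO and at 6.13 and 10.7 FPKM with SB, in the same arrangement. The log2 fold changes were -0.04 for HBG2 (95% confidence interval -0.72 to 0.63) and 0.02 for HBG1 (-0.85 to 0.89), with limma adjusted p of 0.989 and 0.994. Within the replicate numbers they were 0.02 and -0.11 for HBG2 and -0.05 and 0.10 for HBG1. HBG2 exceeded HBG1 by 85.4 to 113 times in the 4 libraries, a ratio that depends on how fragments of the shared sequence were assigned.

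HBD, which encodes the minor adult δ chain, was the gene with the higher level after inhibition. It stood at 74.8 and 113 FPKM with DMSO and at 238 and 299 FPKM with SB, and the lowest SB library was above the highest DMSO library by more than the spread within either group. The mean was 93.7 ± 26.6 FPKM with DMSO and 268 ± 42.7 FPKM with SB (SD, n = 2 each), 2.87-fold higher. The log2 fold change was 1.53 (SE 0.26, 95% confidence interval 0.85 to 2.21), with 1.66 and 1.40 within the replicate numbers. The limma adjusted p was 0.169 and did not pass, with an unadjusted p of 0.00230.

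HBB, which encodes the major adult β chain, differed between replicate numbers and not between groups. It stood at 2.20 and 11.9 FPKM with DMSO and at 1.93 and 13.3 FPKM with SB. The libraries of replicate 2 exceeded those of replicate 1 by 5.42 times with DMSO and 6.90 times with SB, while the groups overlapped. The log2 fold change was 0.01 with a 95% confidence interval of -2.58 to 2.59 (limma adjusted p 0.999), and -0.13 and 0.15 within the replicate numbers. That interval includes the spread between replicate numbers, so that even a large difference could not be detected by this fit. HBD exceeded HBB in each library, by 9.42 to 123 times, although β-globin is by far the larger of both in adult red cells. How fragments that fit both genes were counted is not stated, so the size of this ratio is uncertain. Within the same cluster, the pseudogene HBBP1 stood at 11.1 and 14.7 FPKM with DMSO and at 16.1 and 17.4 FPKM with SB (limma adjusted p 0.682). The non-coding BGLT3 stood at 1.32 and 3.13 FPKM with DMSO and at 0.932 and 0.922 FPKM with SB (limma adjusted p 0.635).

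**Figure D2:**
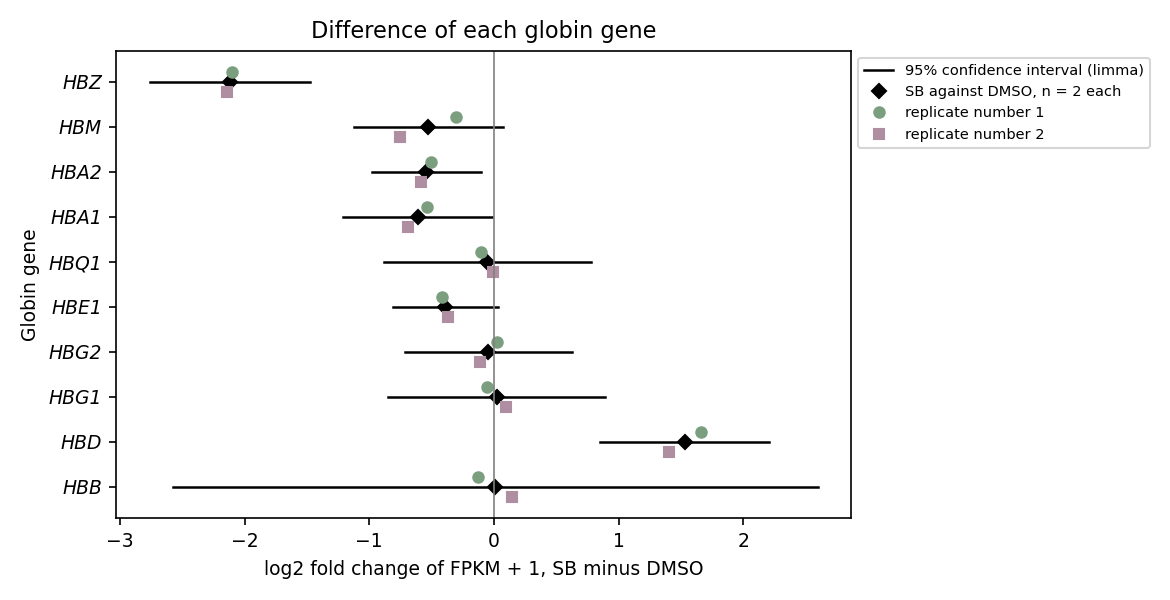
Log2 fold change of FPKM + 1 (SB minus DMSO) for each globin gene, with diamonds for the groups (n = 2 each), bars for the 95% confidence interval of limma, circles for replicate 1 and squares for replicate 2. HBZ sits at -2.12 (-2.10 and -2.14 in replicates 1 and 2) and HBD at 1.53 (1.66 and 1.40), while the interval of HBB spans -2.58 to 2.59.

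The make-up of each cluster was compared as shares within a library, which do not depend on the scaling between libraries. With 2 libraries against 2, an exact two-sided permutation test cannot give a p below 0.333, so these shares are described by their ranges. HBZ made up 57.8% and 51.8% of alpha-like FPKM in the DMSO libraries and 29.8% and 25.8% in the SB libraries (exact permutation p 0.333). The α genes HBA1 and HBA2 made up 33.8% and 41.7% with DMSO and 53.0% and 60.6% with SB, which made them the larger part of the cluster in the SB libraries and HBZ the larger part in the DMSO libraries. HBM and HBQ1 together made up 8.40% and 6.60% with DMSO and 17.2% and 13.5% with SB. The ratio of HBZ to both α genes was 1.71 and 1.24 with DMSO and 0.562 and 0.426 with SB.

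In the beta-like cluster the ε share was lower and the δ share higher, while the γ share overlapped between the groups. HBE1 made up 44.5% and 37.5% with DMSO and 32.8% and 29.7% with SB, without overlap (exact permutation p 0.333). HBG1 and HBG2 made up 49.9% and 55.6% with DMSO and 50.0% and 52.6% with SB, with overlap (exact permutation p 1.0). The share of HBD was 5.42% and 6.25% with DMSO and 17.0% and 16.9% with SB, closely alike within each group (exact permutation p 0.333). HBB stayed below 1% of the cluster, between 0.138% and 0.756%. With HBD left out of the sum, the difference of the ε share (SB minus DMSO) was -5.87 percentage points in place of -9.74, and that of the γ share was 5.77 in place of -1.44. The ε difference was -6.24 percentage points without DMSO replicate 1, and the γ difference was 1.39 without DMSO replicate 2.

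The clusters also differed from each other. Alpha-like globins summed to 252 and 212 FPKM with DMSO and to 112 and 93.3 FPKM with SB, while beta-like globins summed to 1379 and 1801 FPKM with DMSO and to 1400 and 1762 FPKM with SB. The alpha-like to beta-like ratio was 0.183 and 0.117 with DMSO and 0.0798 and 0.0530 with SB. By FPKM the beta-like cluster was thus in excess in all 4 libraries, and the ratio was lower in both SB libraries (exact permutation p 0.333). How fragments that fit more than 1 copy were counted is not stated, so the size of this excess is uncertain. The difference of the mean ratios was -0.0837, and -0.0511 without DMSO replicate 1. Beta-like globins without HBD summed to 1305 and 1688 FPKM with DMSO and to 1161 and 1464 FPKM with SB, with overlap.

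**Figure D3:**
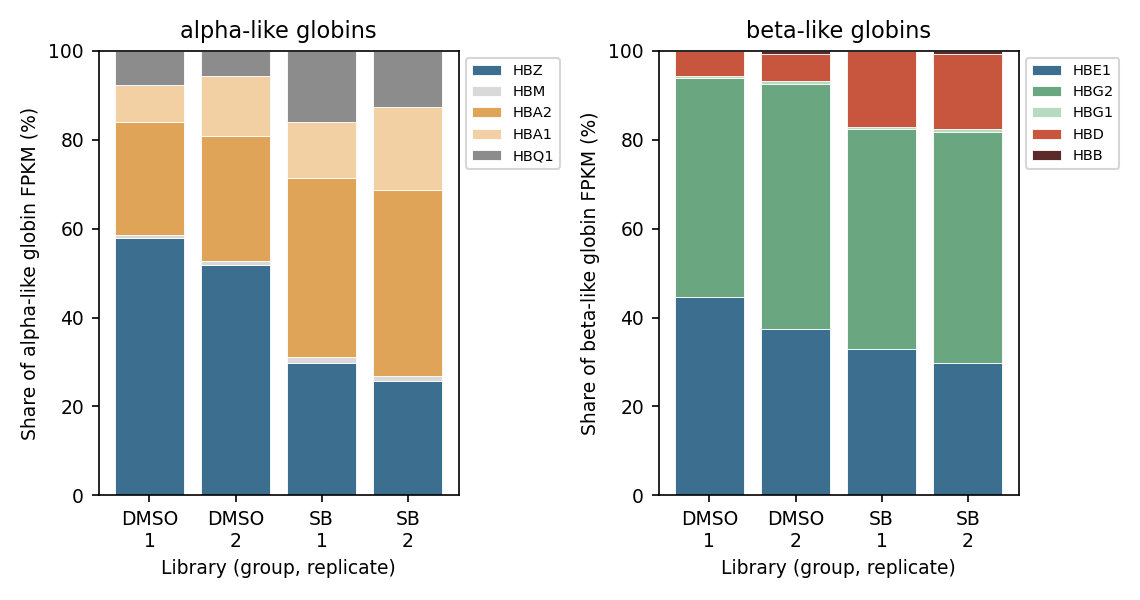
Share of each gene in the summed FPKM of its cluster, in percent, for the 4 libraries (left, alpha-like; right, beta-like). The HBZ part shrinks from 57.8% and 51.8% with DMSO to 29.8% and 25.8% with SB, and the HBD part widens from 5.42% and 6.25% to 17.0% and 16.9%.

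Other genes of hemoglobin synthesis and of red cells were taken from lists and are given by their counts, beside a median log2 fold change of 0.04 over all 14909 tested rows. In the list of heme synthesis and iron supply, 0 of 20 genes passed the adjusted test in either direction, and the median was 0.09. At an unadjusted p under 0.05, 1 was higher and 2 were lower, where 4.8% of all tested rows were higher and 5.16% lower. ALAS2, the erythroid enzyme that starts heme synthesis, had the largest difference, at 53.3 and 46.4 FPKM with DMSO and 11.7 and 10.7 FPKM with SB (-2.06 ± 0.17 (SE) on the log2 scale, limma adjusted p 0.0605). SLC25A37, which imports iron into mitochondria, had a log2 fold change of -0.67 (limma adjusted p 0.310), and HMOX1, which breaks heme down, one of 0.69 (limma adjusted p 0.270).

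Of the red cell membrane and enzyme list, 17 of 25 genes were tested and 0 passed, with a median of 0.04. At an unadjusted p under 0.05, 4 were higher and 2 lower, where 4.8% of all tested rows were higher and 5.16% lower. RHAG, a membrane protein of the Rh complex, stood at 21.8 and 30.0 FPKM with DMSO and at 9.18 and 10.6 FPKM with SB (log2 fold change -1.29, limma adjusted p 0.169). HEMGN, a nuclear protein of hematopoietic cells, had a log2 fold change of 1.44 (limma adjusted p 0.170). Some genes of late red cells were near 0. SLC4A1, the anion exchanger of the red cell membrane, stood at 0.40 FPKM or less in each library, and AHSP, the chaperone of free α chains, at 0.328 and 0.180 FPKM with DMSO and was listed at 0 in both SB libraries.

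In the list drawn up for erythroid activators of the globin clusters, 0 of 19 genes passed the adjusted test. This list also held genes that are not activators, among them the repressor GFI1B and the receptors EPOR and KIT, so its counts and median are not those of activators alone. The median was 0.23. At an unadjusted p under 0.05, 3 were higher and 0 lower, where 4.8% of all tested rows were higher and 5.16% lower. GATA1, the master regulator of red cell and platelet genes, stood at 42.8 and 40.9 FPKM with DMSO and at 63.0 and 62.7 FPKM with SB (log2 fold change 0.58, limma adjusted p 0.322). NFE2, which binds the control region of the beta-like cluster, had a log2 fold change of 0.54 (limma adjusted p 0.433), and the repressor GFI1B one of 1.47 (limma adjusted p 0.117). KLF1, an erythroid activator of the β gene, stood at 33.4 and 21.7 FPKM with DMSO and at 33.9 and 23.9 FPKM with SB, with a log2 fold change of 0.08 (limma adjusted p 0.977).

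Among the factors of globin switching, 15 of 16 genes were tested, 0 passed, and the median was 0.07. At an unadjusted p under 0.05, 1 was higher and 2 lower, where 4.8% of all tested rows were higher and 5.16% lower. BCL11A, a repressor of γ genes, stood at 2.12 and 2.50 FPKM with DMSO and at 1.37 and 1.17 FPKM with SB (log2 fold change -0.55, limma adjusted p 0.488). SOX6, which acts with it and also represses the ε gene, was at 7.40 FPKM in each DMSO library, against 4.48 and 3.81 FPKM with SB (log2 fold change -0.71, limma adjusted p 0.288). LIN28B, an RNA-binding protein of fetal-type blood formation, had a log2 fold change of 0.47 (limma adjusted p 0.705), and NR2F2, a nuclear receptor of veins that also binds ε and γ promoters, one of 0.87 (limma adjusted p 0.450).

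**Figure D4:**
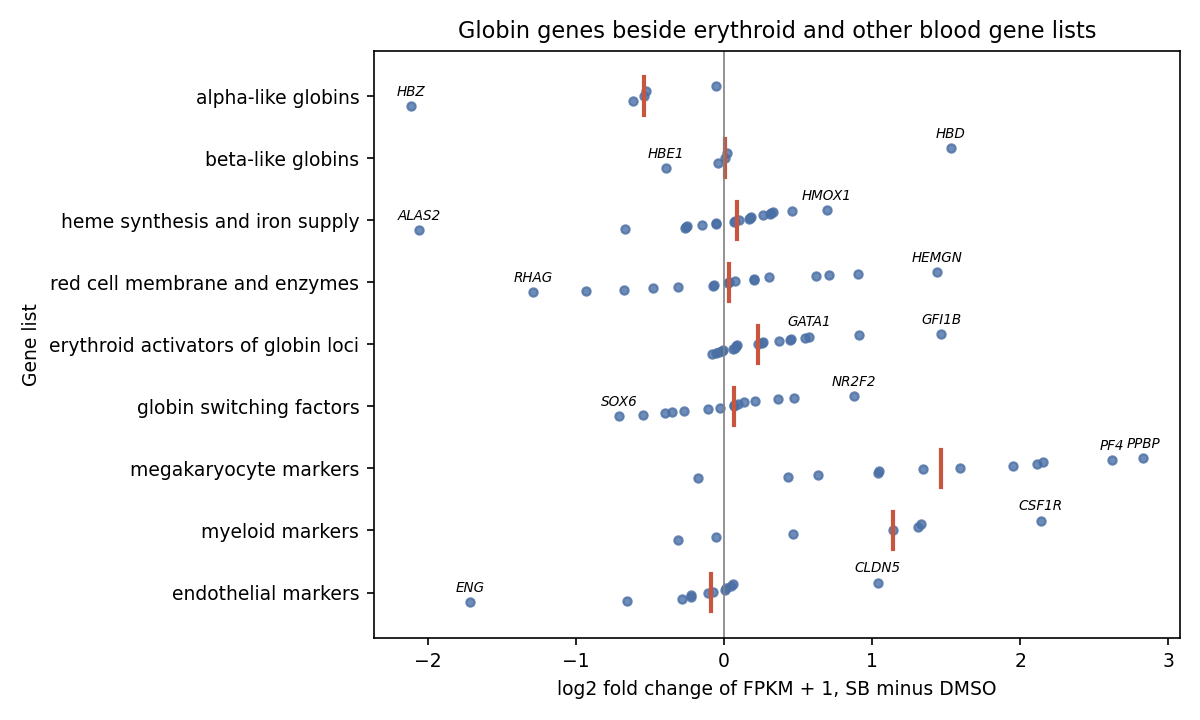
Log2 fold change of FPKM + 1 (SB minus DMSO) of each tested gene in 9 lists, 1 point per gene, with a red bar at the median of each list. The globin genes are spread from -2.12 (HBZ) to 1.53 (HBD), ALAS2 lies at -2.06, and the megakaryocyte markers have a median of 1.47.

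Markers of other cell types also differed between the groups. For scale, 4.8% of all tested rows were higher and 5.16% lower at an unadjusted p under 0.05. Past the adjusted test, 0.0268% were higher and 0.107% lower. In the list of megakaryocyte markers 10 of 12 genes were higher at an unadjusted p under 0.05, 1 of them, THBS1, past the adjusted test, and the median log2 fold change was 1.47. Their summed level was 273 to 284 FPKM with DMSO and 737 to 822 FPKM with SB, with none listed at 0 in all libraries. PF4 stood at 32.6 and 49.7 FPKM with DMSO and at 199 and 322 FPKM with SB (limma adjusted p 0.0969). Of the myeloid markers 7 of 12 were tested, and 3 of them (CSF1R, TYROBP and FCER1G) were higher at an unadjusted p under 0.05. The other tested genes went both ways, with log2 fold changes of 1.14 for SPI1, 0.47 for LYZ, -0.06 for CEBPA and -0.31 for AZU1. The list summed to 106 to 127 FPKM with DMSO and 258 to 293 FPKM with SB, with ELANE at 0 in each library. Endoderm and liver markers were lower, 8 of 11 tested genes at an unadjusted p under 0.05 and 4 (APOA1, AFP, TTR and APOA2) past the adjusted test, and summed to 342 to 343 FPKM with DMSO and 51.5 to 80.6 FPKM with SB. Mesenchymal markers summed to 385 to 418 FPKM with DMSO and 206 to 212 FPKM with SB, and lymphoid markers to 18.5 to 18.8 and 22.9 to 28.3 FPKM. The 3 genes with the smallest p among the mesenchymal markers were COL1A1, TAGLN and COL3A1, all lower with SB. Only 3 of 9 lymphoid markers were tested, NKG7, CD79A and CD79B. They were higher with SB, 0 of them at an unadjusted p under 0.05. NKG7 and CD79A stood at 2.28 FPKM or less in each library, so CD79B, at 16.9 to 25.3 FPKM, carried most of the sum. Among the endothelial markers the 3 genes with the smallest p went both ways, with log2 fold changes of -1.72 for ENG, 1.04 for CLDN5 and -0.66 for FLT1. In these lists no gene passed the adjusted test. The part of these cell types in the levels of HBZ and HBD was not tested.

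Other members of the globin family and the genes beside the clusters were read from the same fit. Cytoglobin (CYGB), a globin of fibroblasts and other tissues, stood at 5.69 and 4.44 FPKM with DMSO and at 6.24 and 4.21 FPKM with SB (limma adjusted p 0.990), and was the only 1 of 4 other globin genes with enough expression to be tested. Neuroglobin (NGB) was listed at 0 in all libraries and myoglobin (MB) in all but 1. Of the 9 tested neighbours and pseudogenes of the clusters 0 passed, and the median was -0.03. SNRNP25, RHBDF1 and POLR3K, all upstream of HBZ on chromosome 16, had log2 fold changes of 0.66, -0.92 and 0.37 (limma adjusted p 0.381, 0.564 and 0.573). Of the genes of globin partners and hemoglobin clearance 3 of 6 were tested and 0 passed. The receptor LRP1, which takes up hemopexin with its heme, had the largest difference among them (log2 fold change -1.47, limma adjusted p 0.167), followed by hemopexin itself (HPX, 0.17, limma adjusted p 0.910) and the heme-regulated kinase EIF2AK1 (-0.02, limma adjusted p 0.990).

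The genes whose profile over the 4 libraries was most like that of a globin gene were ranked by the root mean square difference of centred log2 values, among 10343 genes with at least 5 FPKM in the higher group. For HBZ these were KRT19 (0.0479), ALAS2 (0.143), FOXC2 (0.146), IGFBP7 (0.149) and ENC1 (0.157). KRT19, an epithelial keratin, stood at 48.0 and 36.7 FPKM with DMSO and at 10.6 and 8.14 FPKM with SB. For HBE1 they were DIP2A, TNFRSF10B, CTSK, PDE9A and GIMAP4, at 0.0136 to 0.0252. For the summed γ genes they were GNB4, ZNF431, C1orf27, TFG and PPP4R1L, at 0.00719 to 0.0143. With 4 libraries such a likeness is a description, and genes with a small difference between groups find close matches readily.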

How the data were processed

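RNA-seq of 4 libraries was read from 1 table. Per the paper the sequencing and primary analysis were done by a service company. The authors deposited FPKM values with 1 column per library, and no scaling between libraries is stated. The submitters' processing notes name BWA, Bowtie and RSEM, with no role, and the build hg19. However, 95.5% of the 58365 identifiers are in GENCODE 29 with the same version and 99.8% of these have the same position there, so the loci are on GRCh38. For the globin genes 4 of 10 match in version and position, and coordinates are those of the table. Strand use is not stated.

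Values were transformed to log2(FPKM + 1), which understates the change of low genes, and rows with a mean of at least 1 FPKM in at least 1 group were tested (14909). The test of SB against DMSO used limma 3.58.1 (R 4.3.3; empirical Bayes with a trend, group as the only term, two-sided, Benjamini-Hochberg over all tested rows, threshold 0.05), after the fit had been tested on simulated data. Shares and ratios were computed in Python 3.11.15 with pandas 2.3.3, and their exact permutation tests with scipy 1.17.1. The value of 1 fragment was the median around the most frequent low value among genes with 1 transcript within 5% of a gene's length. The table holds no counts, so the count test planned for that case was not run. The depth is otherwise unknown, and an exact 0 can be a failed estimate and is only called listed at 0.

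The members and lists were chosen with earlier results of these data known. Named are all 10 members, GATA1, KLF1, BCL11A, LIN28B, AHSP and ALAS2, the genes of each list past the threshold or else the 3 with the smallest unadjusted p, and the 5 genes closest in profile to HBZ, HBE1 and the summed γ genes. A gene that this rule names is not reported here. Any other gene was named after its values were seen (HBBP1, BGLT3, PECAM1, PF4, SLC4A1, NGB, MB, ELANE, SPI1, LYZ, CEBPA and AZU1, and the genes closest to HBD). As alternatives, the fit was repeated with a replicate block, other filters, other normalizations, a pseudocount of 0.1, near-identical copies summed, limma without the trend, shares without HBM, HBQ1 and HBD, and with each library removed. The tests kept the rows of the main filter except where the filter itself was changed, and rows at 0 in every library were left out also without a filter. With 1 library left in a group, that library is assumed to vary like the others.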

Additional observations from a re-analysis of the deposited data

How the results depend on the processing

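The replicate number as a block moved the count of globin genes called from 0 to 5 (HBZ, HBA2, HBA1 and HBE1 lower, HBD higher; limma adjusted p 0.00182, 0.0195, 0.0254, 0.0171 and 0.00462), where 10.5% of all tested rows were called. It moved the erythroid lists from 0 to 18 of 71 genes. With 4 libraries the block leaves little spread of each gene to measure, so these p-values rest largely on the spread that limma shares over genes. The deviations of DMSO and SB libraries with the same number correlated at r = 0.528 over the tested rows, which are not independent, but the labels do not establish this pairing. Under the other alternatives, removal of each library included, 0 globin genes were called, with 2 to 5 of them at an unadjusted p under 0.05. Among the erythroid lists 1 gene, ALAS2, was called with a stricter filter (2 or more libraries at 5 FPKM or above), with quantile normalization, with upper-quartile scaling and when rescaled without mitochondrial, RN7SL and globin rows, and 0 when each library was removed in turn.

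When each library was removed in turn, log2 fold changes ranged from -2.34 to -1.89 for HBZ, from -0.64 to -0.45 for HBA2, from -0.83 to -0.39 for HBA1, from -0.70 to -0.35 for HBM, from -0.49 to -0.30 for HBE1 and from 1.24 to 1.82 for HBD. The differences that were near 0 changed sign. They ranged from -0.38 to 0.28 for HBQ1 (0.28 without DMSO replicate 1, 0.23 without SB replicate 2), from -0.31 to 0.22 for HBG2 (0.22 without DMSO replicate 2, 0.16 without SB replicate 1), from -0.34 to 0.38 for HBG1 (-0.26 without DMSO replicate 1, -0.34 without SB replicate 2) and from -1.14 to 1.15 for HBB (-1.0 without DMSO replicate 1, -1.14 without SB replicate 2). With upper-quartile scaling HBG1 stood at -0.017 and HBB at -0.026, when so rescaled at -0.019 and -0.040, and with a pseudocount of 0.1 HBB stood at -0.013 and HBM at -0.84. The γ share differed by -1.44 percentage points and by 5.77 without HBM, HBQ1 and HBD, and the ε share by -9.74 and -5.87, since HBD is then left out of the sum. The ζ share differed by -30.0 to -24.0, the ε share by -13.2 to -6.24 and the γ share by -4.28 to 1.39 percentage points when each library was removed in turn, the γ share changing sign without DMSO replicate 2. The alpha-like to beta-like ratio differed by -0.116 to -0.0511 and the summed globin FPKM by -329 to 52.0, the sum changing sign without DMSO replicate 2 and without SB replicate 1. The summed globin FPKM differed by -138 as deposited, by -368 when so rescaled and by -311 without HBM, HBQ1 and HBD. HBM, at 5 to 11 fragments, is limited most by depth.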

Other observations

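HBD was compared in the same way as HBZ, a choice made after its values were seen. The genes closest to its profile over the 4 libraries were AIF1 (root mean square difference of centred log2 values 0.0516), HPGD (0.113), GIMAP5 (0.118), IFIT1 (0.119) and FCER1G (0.129). AIF1, a calcium-binding protein of macrophages, stood at 26.7 and 41.1 FPKM with DMSO and at 80.6 and 111 FPKM with SB. FCER1G, a signaling adaptor of myeloid cells and platelets, stood at 29.7 and 38.7 FPKM with DMSO and at 79.8 and 94.1 FPKM with SB. The erythroid enzyme ALAS2, among the 5 genes closest to HBZ, was lower with SB while HBD was higher. It therefore could not be among the 5 closest to HBD, and its absence there says nothing further. With 4 libraries such a likeness is a description.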
